A study of Mus musculus with 564 samples.

Results

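Afatinib, Neratinib and Poziotinib are the 3 covalent inhibitors of the ERBB receptor tyrosine kinases among the 58 clinical kinase inhibitors (CKIs) whose effect on H3K27ac was profiled in mouse bone marrow-derived macrophages (BMDMs). They were taken by name: every library whose title begins with the name of the compound was kept, which gave 32 of the 564 libraries, 13 for Afatinib, 9 for Neratinib and 10 for Poziotinib. H3K27ac is an acetylated form of histone H3 that marks promoters and enhancers in use, and ChIP-seq gave its level as normalised reads in 59190 cis-regulatory elements (CREs). The BMDMs were wild type, were grown from bone marrow of young male C57/BL6 mice, and received a CKI or its solvent DMSO for 1 h before the stimulus.

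Each CKI was followed by 10 ng/mL lipopolysaccharide (LPS), the ligand of TLR4, or by 10 ng/mL interleukin-4 (IL-4), for 30 min, 1 h, 2 h or 4 h. Libraries named UT received no stimulus, and their titles give 0 h where the treatment label gives a longer culture without stimulus. DMSO had 2 libraries in each of the 9 conditions, 18 in all. A CKI had mostly 1 library in a condition, but Afatinib had 2 at each time of LPS and Poziotinib had 2 UT libraries. The labels do not say whether these further libraries came from other cultures or animals, so p-values measure the spread between libraries, which may be technical. After LPS or IL-4 the test pooled this spread over all compounds. It took the times of a compound as repeats, so that a change of an effect over time is part of the spread.

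The ERBB family comprises the EGF receptor and its relatives ERBB2, ERBB3 and ERBB4, which pair up on the cell surface when ligands such as EGF or the neuregulins bind and then signal through the RAS-ERK and PI3K-AKT pathways. All 3 compounds place an aniline in the ATP pocket of the kinase and carry an electrophilic amide that forms a bond with a cysteine at the pocket's rim. Afatinib and Poziotinib are anilinoquinazolines, while Neratinib is an anilino-cyanoquinoline. Afatinib and Neratinib carry a dimethylamino-crotonamide as the reactive group, and Poziotinib carries an acrylamide on a piperidine ring. The same cysteine is found in a few other kinases, among them BTK, JAK3, TEC and the JNK-activating kinase MAP2K7. ERBB receptors are best known from epithelial tissues, not from macrophages, and the study included the 3 compounds for other kinases that they bound in a chemical proteomics screen: Afatinib for MAPK9, Neratinib for MAP4K5 and Poziotinib for BTK.

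Each compound was used at its own effective concentration for that intended target. Afatinib was therefore given at the highest of the 3 concentrations and Poziotinib at the lowest. Values of the 3 compounds are set side by side below, and no pair of them was compared by a test. Libraries also came in runs of neighbouring columns that shared no compound, and each member lay in a different run, with 9 other CKIs beside Afatinib, 9 beside Neratinib and 7 beside Poziotinib. The main comparison was therefore with the other inhibitors of the same run at the same stimulus and time, and a CRE was called at an adjusted p under 0.05 in limma with a log2 difference over 0.5. The DMSO libraries lay outside these runs, so that an effect of a CKI and a difference between runs cannot be told apart in a comparison with DMSO.

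Depth differed between the members. Estimated reads in CREs were 524407 to 2054694 in the Afatinib libraries, 710067 to 1955055 in those of Neratinib, and 1871760 to 4679301 in the 8 of 10 Poziotinib libraries for which they could be estimated. In DMSO they were 2346043 to 5023998 in 14 of 18 libraries. The ratio of the median level in the 10% of CREs with the most H3K27ac overall to that in the lowest 10%, a measure of enrichment, had a median of 10.94 for Afatinib, 11.29 for Neratinib, 33.64 for Poziotinib and 75.1 for DMSO. The same ratio in the other inhibitors of each run was 11.25, 13.85 and 29.62, close to that of the member it ran with. Between the 2 Afatinib libraries of a time after LPS, log2 values differed with an SD of 0.96 to 1.05 over CREs, against 0.30 to 0.45 between DMSO pairs and 0.43 between the Poziotinib UT libraries. The pooled spread behind the p-values may thus be too small for Afatinib.

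The labels of stimulated and unstimulated libraries fitted the data in every library of the 3 compounds. Over the 1000 CREs that gained and the 1000 that lost most H3K27ac at a given time in DMSO, the mean log2 level of the gaining CREs minus that of the losing CREs was 0.59 to 2.09 in the members' LPS libraries and −3.37 to −1.38 in their UT libraries. For IL-4 the same score was 0.51 to 1.63 after the stimulus and −2.15 to −0.91 without it. LPS libraries were not scored for the IL-4 change, nor IL-4 libraries for the LPS change. The scores therefore cannot show a swap of LPS with IL-4 or of one time with another. Macrophage identity was also visible at promoters. In DMSO UT libraries, H3K27ac per kb at the promoter CREs of the myeloid factor gene Spi1 and of the lysozyme gene Lyz2 lay at the 99.9th and 99.1st percentile of promoter CREs. Itgam and Cd14 lay at 98.4 and 96.6, but Mertk lay at 70.0. Only 5 of 8 macrophage marker genes had a CRE within 1 kb of a start, and Adgre1, Csf1r and Cd68 had none. The B cell gene Pax5 lay at the 0.154th percentile, the fibroblast genes Col1a1 and Pdgfra lay at 1.61 and 0.559, the neutrophil gene S100a8 lay at 6.37, and no T cell or epithelial marker had a promoter CRE. The contrast was weaker at most of these promoters in the Afatinib UT library. There Spi1, Lyz2, Cd14, Itgam and Mertk lay at 99.8, 95.6, 92.5, 83.9 and 25.3. S100a8, Pax5 and Col1a1 lay at 33.9, 9.03 and 4.94, while Pdgfra lay at 0.0. With Neratinib the same 5 macrophage genes lay at 99.5, 88.3, 96.4, 98.1 and 69.1, and with Poziotinib at 99.9, 94.6, 92.3, 94.5 and 69.1. S100a8, Pax5, Col1a1 and Pdgfra lay at 3.96, 4.7, 1.98 and 2.22 with Neratinib. With Poziotinib they lay at 3.81, 1.05, 0.414 and 1.23.

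H3K27ac was low at the promoters of the ERBB genes that could be measured. Erbb2 and Erbb4 had no CRE within 1 kb of a transcription start and their promoters were therefore not measured here. The promoter CRE of Egfr (chr11:16751354-16752922, mm10) held 14 and 16 normalised reads in the DMSO UT libraries, which put its level per kb at the 7.68th percentile of promoters, and that of Erbb3, the kinase-impaired family member, lay at the 15.5th. In the UT libraries of Afatinib, Neratinib and Poziotinib, Egfr lay at 31.2, 4.67 and 9.05. After LPS the Egfr CRE held 50, 80, 95, 68, 61, 126, 35 and 32 reads in the Afatinib libraries, 42, 84, 63 and 37 in those of Neratinib and 49, 35, 40 and 34 in those of Poziotinib. These ranges overlapped those of the run mates, which were 7 to 136 for Afatinib. The log2 differences from the run were 0.40 (95% CI −0.04 to 0.85), 0.09 (−0.51 to 0.69) and −0.05 (−0.65 to 0.56), and none passed the test. Of the ligand genes, 6 of 11 had a promoter CRE (Egf, Hbegf, Btc, Nrg1, Nrg2 and Nrg4) and none was called in any of the 9 comparisons with a run. Of the 36 CREs whose nearest start belonged to a ligand gene, 0 were called after LPS or IL-4 for any member. In the single Afatinib UT library some of them were called, in either direction. Their median log2 difference there was 0.59 against 0.27 over all CREs.

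Some of the kinase genes that could be bound instead had far more H3K27ac, and others did not. Among the kinase genes with a cysteine at the EGFR position, 4 of 8 had a promoter CRE, and in DMSO UT libraries their levels per kb lay at the 94.2nd percentile of promoters for Jak3, the 84.8th for Map2k7, the 83.9th for Tec and the 78.2nd for Btk. None of these 4 promoters was called against the run for any member. Against DMSO, 2 were called lower with Afatinib after LPS and 1 after IL-4, where 15.4% and 6.0% of all promoters were. With Neratinib 2 were called lower after each stimulus, where 17.1% and 6.84% of all promoters were. With Poziotinib 0 were called lower, and none was called higher with any member. Against the run the Map2k7 promoter came closest, with a log2 difference of 0.42 (95% CI 0.21 to 0.64, limma adjusted p = 0.0259) for Afatinib after LPS, which is under the limit of 0.5. Of the 6 kinase genes that the study names as intended or further targets, Mapk14 and Gak lay at the 91.5th and 86.7th percentile, while the intended targets of Afatinib and Neratinib, Mapk9 and Map4k5, lay at 28.8 and 23.4 and Mapkapk2 lay at 7.45, close to Egfr. Afatinib and Neratinib had 1 UT library each, so that their UT tests borrow the spread of the other inhibitors and assume that the lone library varied like them. Map4k5 was higher by 0.85 and Mapkapk2 was lower by 1.56 on the log2 scale in the single Afatinib UT library (limma adjusted p = 0.0427 and 0.00251), where 201 reads stood against 69 to 157 and 32 reads against 76 to 140 in the other inhibitors of the run. Neither gene was called for Afatinib after LPS or IL-4, nor for the other members, and the Map4k5 call was lost with quantile normalisation (log2 0.86, adjusted p = 0.0613).

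The 3 compounds differed widely in how many CREs set them apart from their run mates. After LPS, 742 of 59167 CREs (1.25%) were called for Afatinib, 14 (0.0237%) for Neratinib and 0 (0.0%) for Poziotinib in limma. After IL-4 the counts were 617 of 59155 (1.04%), 2 (0.00338%) and 0 (0.0%), and without stimulus they were 5020 of 59086 (8.5%), 15 (0.0254%) and 0 (0.0%). At an unadjusted p under 0.05 limma found 8602, 4969 and 1026 CREs after LPS, 7463, 4830 and 187 after IL-4, and 16642, 3776 and 421 without stimulus. Each count was set against a different run, and the order of the 3 changed with the reference: with all other inhibitors as the reference it was 1792, 3357 and 1247 after IL-4, and against DMSO Neratinib had more calls than Afatinib. Concentration, depth and the number of libraries differed between the compounds as well. Poziotinib had the deepest libraries and no call, while Afatinib had 8 libraries after LPS against 4 for each of the others. Their part in the counts was not tested. In such bulk libraries fewer cells with a mark and less of the mark per cell cannot be told apart.

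**Figure D1:**
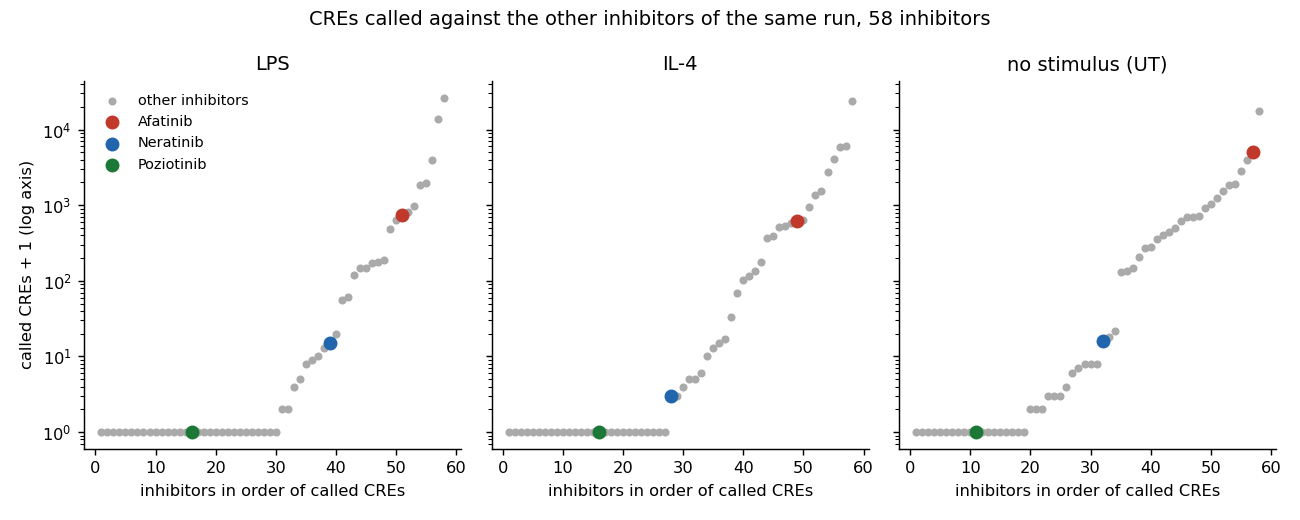
Number of CREs called for each of the 58 inhibitors against the other inhibitors of its run, plus 1, on a log axis, with inhibitors in order of that number after LPS, after IL-4 and without stimulus. Afatinib (red) sits in the upper part of each panel with 742, 617 and 5020 CREs, Neratinib (blue) has 14, 2 and 15, and Poziotinib (green) has 0 in each.

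Among all 58 inhibitors Afatinib ranked 8th after LPS, 10th after IL-4 and 2nd without stimulus by called CREs. Neratinib ranked 20th, 30th and 27th. Poziotinib shared its count of 0 with 30 inhibitors after LPS, 27 after IL-4 and 19 without stimulus, itself included. Within its run Afatinib was 4th of 10 after LPS, behind the PI3K/mTOR inhibitor Omipalisib (3932), BMS911543 (1865) and AZD2014 (800), and 5th of 10 after IL-4. All 10 inhibitors of this run had calls, 61 to 3932 after LPS and 134 to 2788 after IL-4. The medians over the 58 inhibitors were 0 and 2.5. After LPS lower calls outnumbered higher ones for each inhibitor of this run but Omipalisib (2754 higher, 1178 lower). In the run of Poziotinib no inhibitor had a call in any condition, AC480 included, a reversible ERBB inhibitor.

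For Afatinib after LPS, 74 of the 742 called CREs (0.125% of those tested) were higher and 668 (1.13%) were lower. The higher CREs were mostly promoters: 44 of 74 (59.5%) lay within 1 kb of the start of a protein-coding gene, against 6.14% of the lower ones and 19.3% of all CREs tested. After IL-4 the split was 361 higher (0.61%) and 256 lower (0.433%), with promoters making up 9.7% and 23.4%. Without stimulus it was 2798 higher (4.74%) and 2222 lower (3.76%), from 1 library. Quantile normalisation in place of the scaling by the authors changed the split after LPS to 247 higher and 286 lower, and that without stimulus to 3125 and 4999, where pseudocount 1 gave 1816 and 2250. The LPS count rested on single libraries and times: it was 240 without the libraries with suffix b and 2040 without the others, and 262 without 30 min. The IL-4 count was 224 without 4 h, 256 without 2 h and 333 without 30 min.

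Few of the CREs called for Afatinib after LPS were called under another condition. Of the 74 CREs higher after LPS, 1 was also called higher after IL-4, where 0.61% of all CREs were. Without stimulus 3 of the 73 tested were called higher and 3 lower, against 4.74% and 3.76% of all CREs. Of 361 CREs higher after IL-4, 66 were called higher without stimulus and 9 lower, where 4.74% and 3.76% of all CREs were, and these 66 are part of the 2797 CREs higher without stimulus that were tested after IL-4 too. The sign was the same in each of the 8 libraries, against the mean of the run mates at the same time, for 139 of the 742 CREs called after LPS, and in each of the 4 libraries for 524 of 617 after IL-4. None of the CREs called for Neratinib was called under another stimulus. Only 0.0237%, 0.00338% and 0.0254% of all CREs were called for it after LPS, after IL-4 and without stimulus. With so few calls this count of 0 says nothing about the stimuli.

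The promoters of Chac1 and Asns, 2 of the 14 measured on the list of ATF4 target genes, gained H3K27ac with Afatinib after LPS. ATF4 is the transcription factor that is translated when the kinases GCN2, PERK, HRI or PKR phosphorylate eIF2α and that switches on amino acid synthesis, amino acid import and tRNA charging. The CRE at Chac1 (chr2:119350239-119351960, mm10, centre 130 bp from the start), which encodes a glutathione-degrading enzyme, had the lowest adjusted p of all 59167 CREs. It held 91 and 149 normalised reads at 30 min of LPS, 154 and 158 at 1 h, 169 and 88 at 2 h and 141 and 172 at 4 h. The run mates held 14 to 101 reads with a median of 48, and DMSO held 21 to 38. At every time both Afatinib libraries lay above the run mates, except for the value of 88 at 2 h, where the highest mate held 94. The log2 difference was 1.45 (SE 0.21, limma adjusted p = 6.2e-06), and it was called under each of 11 alternative settings. By mean log2 level after LPS, Afatinib ranked 1st of the 58 inhibitors here.

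The Asns gene, which encodes asparagine synthetase, showed the same direction. Its promoter CRE (chr6:7692219-7694071) held 116, 176, 183, 181, 132, 88, 76 and 118 reads in the 8 Afatinib libraries in order of time, against 29 to 168 in the run mates and 27 to 67 in DMSO. The level was lower at 4 h than at 1 h in Afatinib, in DMSO and in the median of the run mates, and at 1 h and 2 h both Afatinib libraries were above all run mates. The log2 difference was 0.83 (SE 0.17, limma adjusted p = 0.00188), and the mean level again ranked 1st of 58. It was 0.76 and no longer called without the libraries with suffix b.

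**Figure D2:**
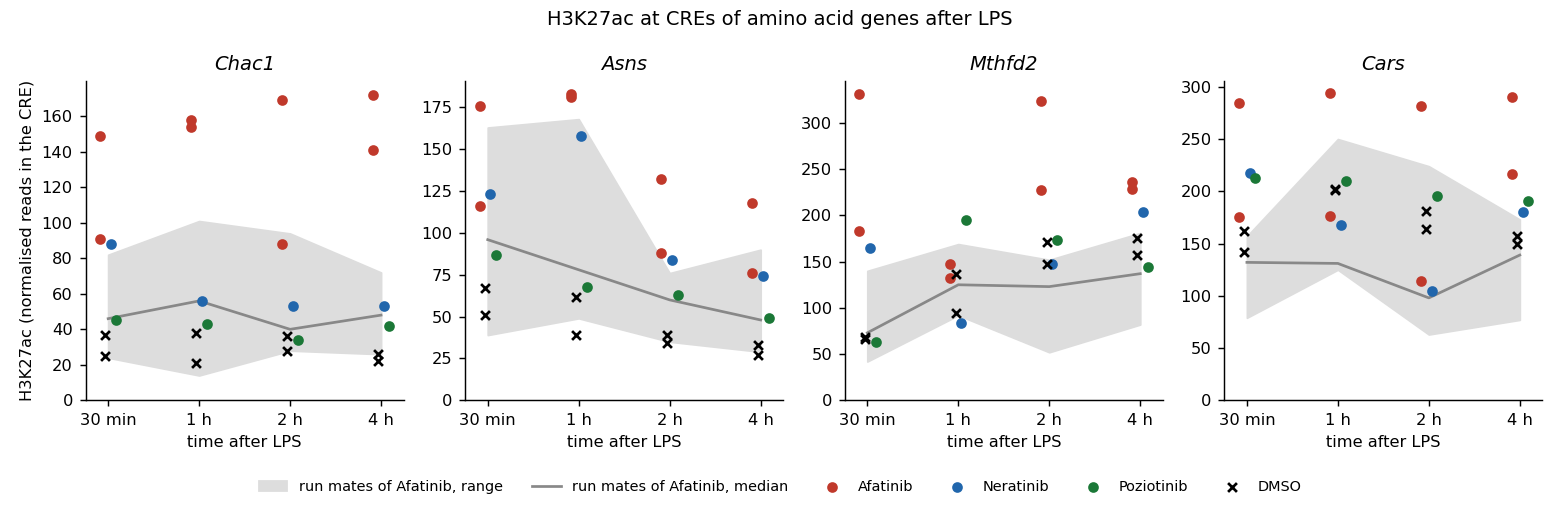
Normalised H3K27ac reads in the CREs of Chac1, Asns, Mthfd2 and Cars at 30 min, 1 h, 2 h and 4 h of LPS, with 1 point per library for Afatinib (red), Neratinib (blue), Poziotinib (green) and DMSO (crosses); the grey band is the range and the grey line the median of the other inhibitors in the run of Afatinib. Most Afatinib points lie at or above the top of the band, for Chac1 at 91 to 172 reads in all but 1 library.

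Further CREs near genes of amino acid metabolism and stress were called for Afatinib after LPS. They were picked after their values were seen, and no list of such genes was tested. A CRE 193 bp from an annotated start of Mthfd2, the mitochondrial folate enzyme (chr6:83316340-83318487), was higher by 0.93 (SE 0.15, limma adjusted p = 5.72e-05), with 183, 331, 132, 147, 324, 228, 229 and 236 reads. At every time but 1 h both Afatinib libraries exceeded all run mates, which held 42 to 140 reads at 30 min, 52 to 152 at 2 h and 82 to 181 at 4 h. The tRNA ligase genes Cars (log2 0.75, SE 0.13) and Aars (log2 0.69, SE 0.13) and the amino acid transporter gene Slc7a5 (log2 0.73, SE 0.18) were called as well, the last through a CRE 9191 bp from its start. A CRE nearest to the start of Klhdc4, a neighbour of Slc7a5, was higher by 1.02 (SE 0.19), and one in an intron of the stress cytokine gene Gdf15 was higher by 0.58 (SE 0.13). A CRE 29 bp from a start of Castor2 was higher by 0.68 (SE 0.18). That call held under only 6 of 11 alternative settings, and after IL-4 the Castor2 difference was −0.53 and not called. The Mthfd2 call held under each of 11 alternative settings. DMSO means after LPS were 127 reads at Mthfd2, 170 at Cars, 235 at Aars and 42.8 at Slc7a5. They were 42.8 at Klhdc4, 185 at Gdf15 and 48.6 at Castor2. In the same order Afatinib means were 226, 229, 264, 112, 124, 281 and 62.5. Run mate means were 117, 133, 168, 70.2, 59.9, 194 and 41.3. At Aars the run mates thus lay below DMSO. By mean log2 level Afatinib ranked 9th of the 58 inhibitors at Aars and 21st at Castor2. Without the libraries with suffix b the calls of Slc7a5 (log2 0.65), Klhdc4 (0.84) and Gdf15 (0.54) were lost, without 2 h those of Slc7a5 (0.34) and Gdf15 (0.45), and with all other inhibitors as the reference those of Cars (0.40), Aars (0.32) and Gdf15 (0.39). Another CRE of Mthfd2, with a higher mean, lies between it and Mob1a and held 150 to 315 reads for Afatinib, a log2 difference of 0.24 that was not called (limma adjusted p = 0.301). The CRE at the start of Slc7a5 was not called either (log2 0.32, adjusted p = 0.44).

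The list of ATF4 targets as a whole moved little. Of its 19 genes, 14 had a promoter CRE, and 2 of these (Chac1 and Asns) were called higher and 0 lower for Afatinib after LPS, with a median log2 difference of 0.20 against 0.08 over all promoters. Of all promoters 0.385% were called higher. Among the 72 CREs whose nearest start belonged to a gene of the list, 4 (5.56%) were called higher. After IL-4 none of the 14 was called, with a median of 0.13. Without stimulus the serine synthesis gene Psat1 was higher by 1.09 (318 reads against 129 to 178 in the run mates) and Atf5 was lower by 1.09 (85 reads against 157 to 232).

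The sequences around the starts of Chac1, Asns and Aars are shown because they hold the core of the C/EBP-ATF response element, TGATGNAA, which ATF4 binds together with a C/EBP protein. They run from 250 bases before to 20 bases after the RefSeq start on GRCm38.p6, lie inside the called CREs, and have the motif in capitals, which in Chac1 and Aars is its reverse complement since it lies on the other strand.
Chac1 (chr2:119350992-119351261, plus strand): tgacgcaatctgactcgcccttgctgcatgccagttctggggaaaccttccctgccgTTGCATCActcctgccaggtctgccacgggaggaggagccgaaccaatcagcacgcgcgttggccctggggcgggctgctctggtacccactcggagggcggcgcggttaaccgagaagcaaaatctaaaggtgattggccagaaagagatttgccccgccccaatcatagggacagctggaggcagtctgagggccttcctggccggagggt
Asns (chr6:7693190-7693459, minus strand): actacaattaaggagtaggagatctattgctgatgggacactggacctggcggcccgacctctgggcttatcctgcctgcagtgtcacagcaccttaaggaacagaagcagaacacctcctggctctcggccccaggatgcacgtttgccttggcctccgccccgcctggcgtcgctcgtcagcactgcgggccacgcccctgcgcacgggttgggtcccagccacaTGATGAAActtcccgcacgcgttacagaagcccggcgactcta
Aars (chr8:111033592-111033861, plus strand): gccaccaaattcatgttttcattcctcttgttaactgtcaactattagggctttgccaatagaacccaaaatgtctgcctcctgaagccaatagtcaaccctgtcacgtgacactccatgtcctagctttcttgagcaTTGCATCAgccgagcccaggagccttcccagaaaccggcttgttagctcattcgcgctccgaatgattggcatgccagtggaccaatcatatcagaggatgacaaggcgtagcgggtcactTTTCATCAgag
The motif begins 193 bases before the start in Chac1, 23 before it in Asns, and 112 before and 9 after it in Aars. TGATGNAA was searched on both strands of the RefSeq promoter windows, and 1219 of 27025 genes (4.51%) held it. Among genes whose promoter CRE was higher with Afatinib after LPS, 3 of 36 with a window (8.33%) held it, against 2 of 37 (5.41%) of those that were lower and 260 of 9133 (2.85%) of those tested. A match of these letters is a description of the window and does not show binding.

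None of these CREs was called against the run for Neratinib or Poziotinib after LPS or IL-4. After LPS, Chac1 held 88, 56, 53 and 53 reads with Neratinib and 45, 43, 34 and 42 with Poziotinib from 30 min to 4 h, and the log2 differences were −0.16 (95% CI −0.73 to 0.41) and −0.33 (−0.90 to 0.25). For Asns they were 0.32 and −0.06. Neratinib after LPS lay below all 9 run mates by mean level at the Gdf15 CRE, with a log2 difference of −0.48 (95% CI −0.84 to −0.13, limma adjusted p = 0.571), and above all 9 at Klhdc4, with 0.47 (−0.02 to 0.97, limma adjusted p = 0.601). After IL-4 it lay above all 9 at Mthfd2, with 0.51 (0.11 to 0.92, limma adjusted p = 0.565), and ranked 2nd of the 58 inhibitors. It also lay above all 9 at Cars (0.32, 0.05 to 0.6), Klhdc4 (0.33, −0.17 to 0.83) and Aars (0.25, −0.02 to 0.52). It did not at Slc7a5, Gdf15 or Castor2. After IL-4, where concentrations again differed, Chac1 held 134, 139, 114 and 115 reads with Afatinib, 163, 185, 84 and 162 with Neratinib and 68, 114, 88 and 67 with Poziotinib. The Afatinib value was 0.65 above its run (limma adjusted p = 0.184) and that of Neratinib was 0.50 above (adjusted p = 0.608), so neither passed the test. By mean log2 level Neratinib ranked 2nd of the 58 inhibitors for Chac1 after IL-4.

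Of the genes that report the activity of the RAS-ERK pathway, 5 of 19 were higher with Afatinib than in the run mates after IL-4. The list holds 20 genes, of which 19 had a promoter CRE. After IL-4, 5 were called higher and 0 lower, with a median log2 difference of 0.26 against −0.01 over all promoters, of which 0.289% were called higher. These were the feedback regulators Spred2 (log2 0.93, SE 0.22) and Dusp6 (0.59, SE 0.16), the ETS factor gene Etv5 (0.92, SE 0.20), the growth regulator Myc (0.58, SE 0.15) and the cyclin gene Ccnd1 (0.76, SE 0.20). Etv5 (chr16:22438840-22440824) held 306, 251, 205 and 150 reads from 30 min to 4 h of IL-4 with Afatinib. The medians of its run mates were 136, 99, 93 and 116.5, and DMSO held 152 to 378. Afatinib was thus above the median of its run at each time, and at 2 h above all run mates. In the runs of Neratinib and Poziotinib the mates held more, with medians of 296, 146, 183 and 180 and of 333, 343, 255 and 193 reads.

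Against DMSO 4 of the 19 promoters were called higher after IL-4 (Spry1, Spry4, Egr3 and Fosl1) and 2 lower (Dusp5 and Ccnd1), with a median of −0.02, and none of the 5 genes above was higher than in DMSO by the test. The reference thus decided these calls. With all other inhibitors as the reference the log2 difference was 0.19 for Etv5, 0.13 for Myc, 0.20 for Ccnd1, 0.35 for Dusp6 and 0.57 for Spred2, and none of the 5 was called. Leaving out 30 min or 2 h also ended each of the 5 calls, with differences of 0.51 to 0.90, and for Dusp6 leaving out 4 h did so too (0.60). Leaving out AZD2014, AZD8186 and Omipalisib, inhibitors of PI3K or mTOR, changed none of the 5. Without stimulus 7 genes of the list were called higher with Afatinib and 0 lower, with a median of 0.64 against 0.06 over all promoters, of which 3.32% were called higher. The phosphatase gene Dusp4 led them with 467 reads against 50 to 314 in the run mates and 156 and 186 in DMSO (log2 1.49, SE 0.26), and its call alone held with all other inhibitors as the reference. After LPS none of the 19 was called, with a median of 0.15.

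On the list of sterol synthesis, 3 of 16 promoters were higher with Afatinib after IL-4. Of 17 genes, 16 had a promoter CRE, and after IL-4 the SREBP target genes Sqle (log2 0.83, SE 0.18), Idi1 (0.57, SE 0.13) and Hmgcs1 (0.50, SE 0.13), all enzymes of the pathway, were called higher and 0 lower. The median of the list was 0.34 against −0.01 over all promoters, and 15 of the 16 were above 0. Sqle (chr15:59313901-59315997) held 150, 183, 159 and 207 reads with Afatinib, where the medians of the run mates were 73, 136, 77 and 136.5 and DMSO held 118 to 194. Afatinib thus lay above the median of the run mates at each time and within or just above the range of DMSO. Without stimulus, from 1 library, Hmgcs1, Idi1 and the sterol carrier gene Stard4 were called higher, and after LPS none was, with medians of 0.55 and 0.22. The Stard4 call held under 0 of 5 alternative settings. Against DMSO after IL-4, 0 of the 16 promoters were called higher and 2 lower with Afatinib, with a median of −0.05. With all other inhibitors as the reference, Sqle, Idi1 and Hmgcs1 were 0.42, 0.24 and 0.23 above it after IL-4 and not called. Leaving out 2 h ended each of these 3 calls as well (0.78, 0.59 and 0.54), leaving out 1 h that of Idi1 (0.55), and leaving out 30 min or 4 h that of Hmgcs1 (0.45 and 0.41). Without AZD2014, AZD8186 and Omipalisib in the reference Sqle remained called, while Idi1 (0.47) and Hmgcs1 (0.38) did not.

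**Figure D3:**
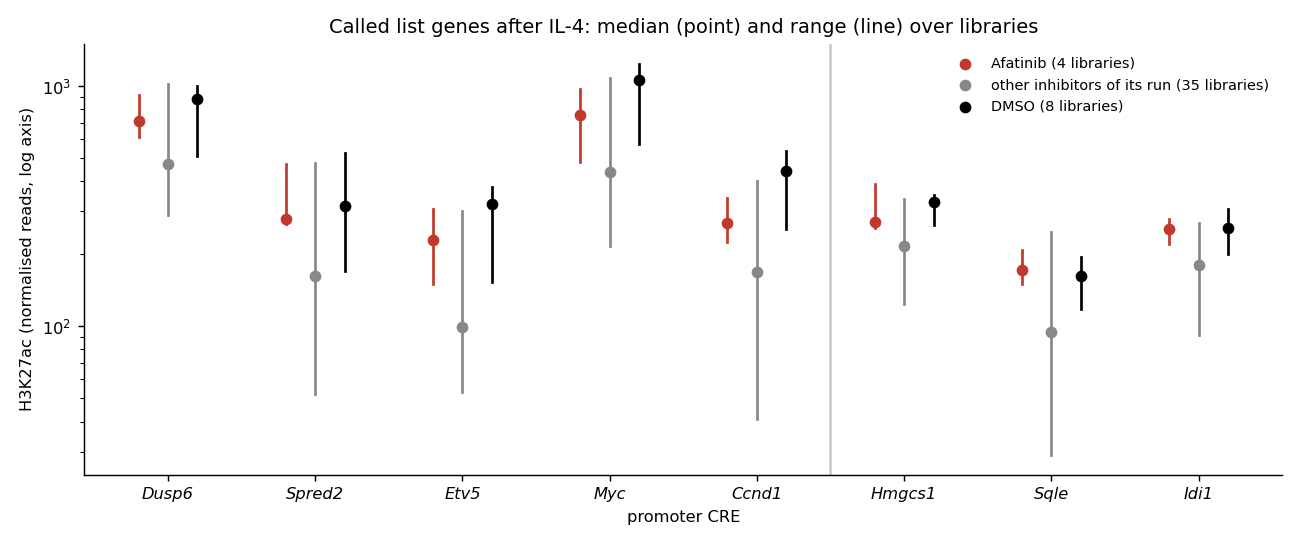
Normalised H3K27ac reads, on a log axis, in the promoter CREs of the 5 genes of ERK output and the 3 genes of sterol synthesis called for Afatinib after IL-4; points are medians and lines ranges over 4 Afatinib libraries, 35 libraries of the other inhibitors of its run and 8 DMSO libraries. Each Afatinib median lies above that of the run mates, and the DMSO median is higher still for each gene but Sqle.

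Against their runs, no gene of the 2 lists was called for Neratinib or Poziotinib under any stimulus. After IL-4, 13 of the 19 ERK output promoters were above the run with Neratinib (median 0.13) and 13 with Poziotinib (median 0.07), against 14 with Afatinib. The run mates of Neratinib included the ERK inhibitor GDC0994 and the MEK inhibitor Pimasertib, whose part was not tested. Against DMSO 9 of the 19 were above 0 with Neratinib (median −0.11) and 17 with Poziotinib (median 0.37). As single genes, Etv5 after IL-4, for example, differed from the run by 0.19 (95% CI −0.22 to 0.59) with Neratinib and by 0.15 (−0.26 to 0.55) with Poziotinib. For Sqle the intervals were −0.20 to 0.52 and −0.35 to 0.38. The sterol list had medians of −0.21 after LPS and −0.12 after IL-4 with Neratinib and of −0.02 and 0.03 with Poziotinib.

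Promoters of inflammatory and IL-4 response genes gave few calls against the runs and more against DMSO. Of 22 inflammatory genes of the NF-κB and p38 pathways, 14 had a promoter CRE. Against the run none was called after LPS or IL-4 for any member. Against DMSO after LPS, 9 of the 14 were called lower and 1 higher with Afatinib. Their median was −0.7 against −0.15 over all promoters, of which 15.4% were called lower. With Neratinib 4 were called lower and 1 higher, and with Poziotinib none was called. After IL-4, 4, 5 and 1 were called higher than in DMSO with Afatinib, Neratinib and Poziotinib, and 1 lower with Neratinib. Set against the run, 226 CREs had their nearest start at a gene of the list. Of these, 12 (5.31%) were lower and 0 higher with Afatinib after LPS, where 1.13% of all CREs were lower. Il12b, a subunit of interleukin-12, and the chemokine gene Ccl2 were higher in the Afatinib UT library, with 117 reads against 27 to 77 in the run mates and 95 against 14 to 110, though with all other inhibitors as the reference the log2 difference of Ccl2 was 0.05. Of 25 IL-4 response genes, 20 had a promoter CRE, and after IL-4 none was called against the run for any member. Against DMSO after IL-4, 6 of the 20 were called lower and 1 higher with Afatinib. With Neratinib these were 4 and 2, and with Poziotinib 2 and 0. Of the 213 CREs nearest to these genes, 7 (3.29%) were lower than in the run and 0 higher with Afatinib after LPS. The lectin gene Mgl2 was lower with Afatinib after LPS (log2 −0.76, SE 0.20), a call that was lost without 30 min, 2 h or 4 h and without the libraries with suffix b (log2 −0.76, −0.70, −0.59 and −0.62). Arg1, the arginase of alternatively activated macrophages, and Clec10a were lower without stimulus (log2 −0.96 and −0.91). The interferon-induced gene Ifit1 was lower with Afatinib after IL-4, with 45, 84, 63 and 23 reads against medians of 82, 110, 103 and 86.5 (log2 −0.87, SE 0.16, limma adjusted p = 0.000888). It was the only one of 17 interferon response promoters called in the 9 comparisons with a run, and without 4 h its difference was −0.57 and not called. With Poziotinib after LPS all 17 of these promoters were above the run mates, with a median of 0.21 against −0.02 over all promoters, and none passed the test. The largest difference among them was 0.44 at Ifit3 (95% CI −0.14 to 1.01). These run mates included the JAK inhibitor Ruxolitinib and TG100572, which the study used at its concentration for the JAK family kinase TYK2. Against DMSO 1 of the 17 promoters was above 0 with Poziotinib, with a median of −0.29 against 0.07 over all promoters. There 3 were called lower and 0 higher. The part of the reference in this difference was not tested. With Afatinib after LPS, 16 of the 17 were called lower than in DMSO and 0 higher. Their median was −0.99 against −0.15 over all promoters. With Neratinib 11 were called lower and 0 higher (median −0.68 against −0.12). The run mates of Afatinib included the JAK inhibitors Filgotinib and BMS911543, whose part was not tested. In these comparisons with DMSO an effect of the compound and a difference between runs cannot be told apart.

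Stress lists other than ATF4 gave few calls against the runs. The 18 promoters of NRF2 target genes, which defend against oxidants and electrophiles, were all above the run mates with Afatinib after LPS, with a median of 0.24 against 0.08 over all promoters. None was called, and Pgd came closest with a difference of 0.40 (limma adjusted p = 0.0396), under the limit of 0.5. In the Afatinib UT library the glutathione synthesis gene Gclc was higher by 0.99, with 244 reads against 45 to 172. The 8 CREs of heat shock genes had a median of 0.24 after LPS and none was called. For Neratinib the NRF2 and heat shock medians after LPS were −0.12 and −0.18, and for Poziotinib they were 0.02 and −0.03. Among immediate early and JNK-dependent genes, only Gadd45a was called, in the Afatinib UT library (435 reads against 195 to 299). In that library the efferocytosis receptor gene Mertk was lower as well, at 106 reads against 181 to 334.

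**Figure D4:**
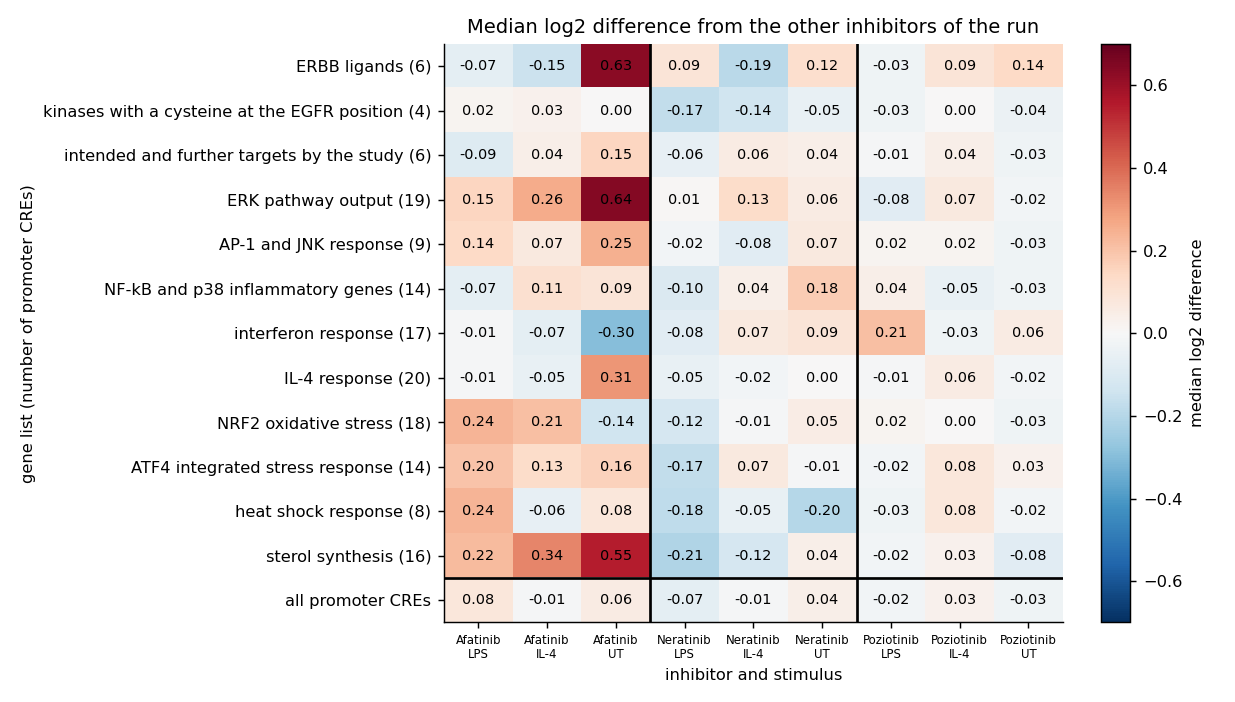
Median log2 difference from the other inhibitors of the run over the promoter CREs of the 12 gene lists with at least 4 such CREs, cell type markers left out, for each member under each stimulus, with the number of CREs in brackets and all promoter CREs in the last line. With Afatinib the lists of ERK output and sterol synthesis reach 0.64 and 0.55 without stimulus, while the medians of these lists with Neratinib and Poziotinib lie between −0.21 and 0.21.

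The CREs that changed most with Afatinib after LPS lay mostly far from promoters. Higher were a CRE in an intron of Efcab11 (chr12:99873950-99875649, log2 1.04, SE 0.16), CREs nearest to the starts of Armc4 (1.88, SE 0.43) and Sema3d (1.12, SE 0.31), and Chac1. The Efcab11 CRE held 334 and 265 reads at 2 h with Afatinib against 50 to 139 in the run mates and 213 and 207 in DMSO, and it was called under each of 11 alternative settings. Lower were CREs at Pecam1 (chr11:106740647-106742244, log2 −1.32, SE 0.22), Scel (−1.33, SE 0.24), Rarres1 (−1.36, SE 0.29) and Gm36079 (−1.40, SE 0.40). The CRE in an intron of Pecam1, the adhesion molecule CD31, held 8 and 3 reads at 30 min, 0 and 0 at 1 h, 38 and 13 at 2 h and 47 and 21 at 4 h, against run medians of 12, 39, 47 and 58. Without 1 h this difference was −0.70 and was not called. Without 2 h the Scel difference was −0.79 and was not called, and without the libraries with suffix b those of Pecam1 (−0.95), Rarres1 (−0.98) and Gm36079 (−0.99) were not called. The calls of Armc4 and Sema3d were lost without either set of Afatinib libraries (Armc4 1.90 and 1.86, Sema3d 0.94 and 1.30) and without 4 h (1.41 and 0.82), and that of Sema3d also without 1 h or 2 h (1.22 and 0.96). Gm36079 was not called without 1 h, 2 h or 4 h (−1.48, −1.49 and −1.06).

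After IL-4 the largest gains with Afatinib were at distal CREs. They lay nearest to Cited2 (log2 1.67, SE 0.43), Trps1 (1.62, SE 0.40), the G protein regulator gene Rgs13 (1.60, SE 0.31) and Spred1 (1.54, SE 0.34). Rgs13 (chr1:144198925-144201564) held 145, 92, 102 and 81 reads against run medians of 46, 22, 17 and 37, while DMSO held 114 to 306. Afatinib was thus above the median of its run and below DMSO at each time. With all other inhibitors as the reference the difference was 0.56 at Rgs13, 0.94 at Spred1, 1.12 at Cited2 and 0.53 at Trps1, and none was called. Cited2 (1.67 and 1.26) and Trps1 (1.78 and 1.31) were also not called without 2 h or 4 h, nor Trps1 without 30 min (1.73). The largest falls were at Mical3 (log2 −2.00, SE 0.34), Tm4sf1 (−1.70, SE 0.42), Srp14 (−1.66, SE 0.26) and a CRE 77612 bp from Ezh2 (−3.93, SE 0.95). The last was 0 in all 4 Afatinib libraries after IL-4, but also in 47 of the 95 libraries of the run and 115 of all 564, and was not called without 2 h or 4 h (−4.16 and −3.37). Without 4 h the difference at Srp14 was −0.99 and was not called, and Tm4sf1 was not called without 30 min or 2 h (−1.55 and −1.22).

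Without stimulus the largest differences of Afatinib rested on 1 library and partly on CREs that were often empty. The CREs nearest to Gm21887 and Gm21679, on chromosomes X and Y, held 371 and 159 reads against medians of 0 in the run, and were 0 in 426 and 285 of 564 libraries. The histone gene Hist1h4m was at 0 against 9 to 262 reads in the run mates, and the same CRE near Ezh2 was at 0 again.

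CREs that respond to the stimulus were called in the DMSO libraries of the time course, where 27126 of 50697 CREs (53.5%) were regulated after LPS and 11607 of 47018 (24.7%) after IL-4. Since DMSO defined these lists, the members are compared with their runs. With Afatinib, 172 of 8733 CREs induced late by LPS, at 2 h or 4 h, were lower (1.97%) and 7 were higher (0.0802%). Of all CREs, 1.13% were lower and 0.125% were higher. The median of these CREs was −0.14 against −0.08 over all, and 27.4% were above 0 against 38.2%. Among 5946 CREs induced early, at 30 min or 1 h, 92 were lower (1.55%) and 6 higher (0.101%), close to the shares over all CREs. Of the CREs repressed early and late by LPS, 1.22% and 0.745% were lower. After IL-4, 59 of 3417 early-induced CREs (1.73%) and 61 of 4212 late-repressed CREs (1.45%) were higher with Afatinib, where 0.61% of all CREs were. Their medians were 0.15 and 0.16 against 0.05 over all. With Poziotinib the late LPS-induced CREs had a median of 0.13 against 0.03, and 75.3% were above 0 against 56.4%, with 0 called. Its run mates included Ruxolitinib and TG100572, and their part in this was not tested. For Neratinib the same CREs had a median of 0.04 against 0.12, and 1 was called lower.

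The CREs called for Neratinib were all lower than in its run. After LPS the 4 with the same sign at each time and the largest falls were CREs near Dynlt1b (log2 −2.02, SE 0.39), at the promoters of Zfand6 (−1.59, SE 0.30) and the co-chaperone gene Dnajc25 (−1.27, SE 0.27), and in Arap1 (−1.13, SE 0.21). Dynlt1b (chr17:6476343-6478042) held 63, 0, 11 and 33 reads from 30 min to 4 h against run medians of 106.5, 92, 69 and 65. Arap1 held 130, 84, 11 and 147 reads against medians of 200, 148, 133 and 203. Without the 2 h library, the shallowest of Neratinib with an estimated 710067 reads, none of the 4 was called and the count of called CREs after LPS was 0. The differences of Dynlt1b and Zfand6 hardly moved (−1.93 and −1.59), while those of Dnajc25 and Arap1 shrank to −0.42 and −0.52. Without 1 h Dynlt1b (−1.27) and Zfand6 (−1.16) were not called either. The count was 76 without 30 min and 43 without 4 h. With quantile normalisation it was 301, of which 39 were higher, and with all other inhibitors as the reference it was 122, of which 80 were higher.

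After IL-4 the named CRE for Neratinib was the promoter of Ufm1 (chr3:53863043-53864927), which encodes a ubiquitin-like modifier. It held 151, 65, 79 and 157 reads, against run medians of 190, 179, 182 and 186, with a log2 difference of −0.71 (SE 0.13, limma adjusted p = 0.00623), and its mean level was the lowest of the 58 inhibitors. Afatinib held 223, 227, 193 and 196 reads there and Poziotinib 187, 176, 216 and 213. Without 1 h the Neratinib difference was −0.51 and without 2 h it was −0.57, and it was not called in either case. The count of 2 called CREs was 0 without 1 h, 6 without 30 min, 5 without 2 h and 42 without 4 h. With all other inhibitors as the reference it was 3357, 3209 of them higher, and with quantile normalisation 169, 23 of them higher. Without stimulus CREs at Srp54c and Amer2 were at 0 in the Neratinib library, against medians of 66 and 34 reads in the run, and Srp54c was also at 0 in 60 of all 564 libraries.

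For Poziotinib the width of the differences from its run was small. Log2 differences of 90% of CREs lay between −0.35 and 0.42 after LPS, −0.40 and 0.18 after IL-4 and −0.36 and 0.40 without stimulus. The corresponding ranges were −0.58 to 0.31, −0.48 to 0.57 and −0.86 to 1.52 for Afatinib and −0.35 to 0.71, −0.31 to 0.66 and −0.57 to 0.90 for Neratinib. The promoter of Btk (chrX:134582401-134584431), the gene of the intended target of Poziotinib, differed from the run by −0.07 (95% CI −0.45 to 0.30) after LPS and 0.04 (−0.23 to 0.32) after IL-4. With all other inhibitors as the reference, 0 CREs were called after LPS, 1247 after IL-4 and 2 without stimulus.

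Against DMSO the counts were far higher, and they were lowest for Poziotinib, whose libraries were the deepest. After LPS, 28040 CREs (47.4%) were called for Afatinib, 20831 of them higher, 33406 (56.5%) for Neratinib, 29203 higher, and 8353 (14.1%) for Poziotinib, 7846 higher. After IL-4 the counts were 30501 (51.6%), 34177 (57.8%) and 3513 (5.94%), of which 28114, 31528 and 2063 were higher. The CREs called higher were mostly weak ones: their median level over all libraries was 33.2 to 38.2 reads for the 3 members after LPS and 37.7 and 39 for Afatinib and Neratinib after IL-4, against 61 for all tested. Poziotinib after IL-4 was the exception with 69.2. Quantile normalisation reduced the counts to 7937 (3447 higher), 5284 (2245 higher) and 59 (50 higher) after LPS and to 5108 (2230 higher), 6345 (2777 higher) and 565 (170 higher) after IL-4. For Poziotinib after LPS the count was 325 without 2 h and up to 3708 with another time left out, 1983 without DMSO replicate 1 and 1554 without DMSO replicate 2. After IL-4 it was 945 to 1990 with a time or a DMSO replicate left out. An effect of the compound and a difference in enrichment between runs cannot be told apart here, and these counts are given as a description.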

How the data were processed

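Per the labels and the study's methods, single-end H3K27ac ChIP-seq reads were trimmed and mapped to mm10 with ShortStack (the submitters' processing notes also name Bowtie and SAMtools), and the authors counted reads around ATAC-seq summits, normalised libraries on invariant peaks, and deposited 1 table of normalised, rounded read values. These deposited values are a score, not raw counts, and 1 read was worth 1.33 to 12.6 units in the members' libraries where it could be estimated.

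Here log2(value + 5) was fitted in limma 3.58.1 (R 4.3.3) with a mean trend, separately for LPS, IL-4 and UT libraries, with terms for inhibitor and time and a filter of a mean value of at least 10. Each member was compared with the mean of the other inhibitors of its run and, for LPS and IL-4, with DMSO. P-values were adjusted over all CREs by the Benjamini-Hochberg method. The procedure was tested on simulated data in which all libraries had the same spread at a CRE, unlike the libraries here.

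The CREs named were those with the largest called differences (up to 4 in each direction after LPS or IL-4 with the same sign at each time and library, 2 without stimulus), plus called genes of the lists, 1 CRE per gene within 1 kb of a start, the one with the highest mean. Members and lists were chosen with earlier results of these data known. Alternatives were pseudocount 1, no filter, quantile normalisation, other references, a replicate block, and times or replicates left out. Distances and genes came from the annotation of GRCm38.p6, the same assembly as mm10.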

Additional observations from a re-analysis of the deposited data

Results flagged for a closer look

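At 2 CREs every Neratinib library lay below the mean of its run at the same time after LPS and above it after IL-4. The Zfand6 promoter CRE differed by −1.59 on the log2 scale after LPS, with 25, 0, 11 and 12 reads, and by 0.65 after IL-4, with 79, 56, 101 and 54 reads (limma adjusted p = 0.00639 and 0.566). The Dnajc25 promoter CRE differed by −1.27 after LPS, with 35, 65, 0 and 49 reads, and by 0.38 after IL-4, with 79, 93, 118 and 103 reads (limma adjusted p = 0.0283 and 0.632). Only the falls after LPS passed the test. The difference between the stimuli was not tested, and the values of 0 come from the 1 h and 2 h libraries, which held 880539 and 710067 estimated reads.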

How the results depend on the processing

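Replicate numbers were shared for Afatinib and DMSO after LPS and for Poziotinib and its run without stimulus. With the replicate block, a setting chosen after seeing the data, 28095 CREs were called for the former and 0 for the latter. The log2 difference of replicate 2 from replicate 1 correlated over CREs between the groups by −0.05 to 0.01 in the former and by 0.09 to 0.18 in the latter, so the numbers were not taken to pair the libraries. The called CREs for Afatinib, Neratinib and Poziotinib against their runs, in this order, depended on the reference: with all other inhibitors they were 4215, 122 and 0 after LPS, 1792, 3357 and 1247 after IL-4, and 7687, 14 and 2 without stimulus. With pseudocount 1 they were 1187 and 42 after LPS for Afatinib and Neratinib, 13 after IL-4 for Neratinib and 42 without stimulus for Neratinib, and 6177 for Poziotinib against DMSO after IL-4. Quantile normalisation gave 533 and 301 after LPS, 1244 and 169 after IL-4, and 8124 and 182 without stimulus for Afatinib and Neratinib. Against DMSO it gave 7937, 5284 and 59 after LPS and 5108, 6345 and 565 after IL-4 for the 3 members. Adding the UT libraries to the fits against DMSO gave 14299 and 9224 for Poziotinib.

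With times left out in turn, the counts against the run ranged from 262 to 1005 for Afatinib and 0 to 76 for Neratinib after LPS, and from 224 to 835 and 0 to 42 after IL-4. Leaving out 1 of the 2 library sets of Afatinib gave 240 and 2040 after LPS, and 18227 to 28776 against DMSO with a time, a library set or a DMSO replicate left out. For Poziotinib against DMSO, leaving out a time gave 325 to 3708 after LPS and 1062 to 1990 after IL-4, and leaving out a DMSO replicate gave 1554 and 1983, and 945 and 1391. Without 1 of its 2 UT libraries, Poziotinib had up to 1 call. Without AZD2014, AZD8186 and Omipalisib in the reference, a setting chosen after seeing the data, Afatinib had 595, 527 and 3961 calls after LPS, after IL-4 and without stimulus. No named CRE changed its direction under any setting. Of the settings tried for the CREs named for Afatinib, 144 kept and 43 lost the call after LPS, 108 and 45 after IL-4, and 111 and 19 without stimulus. For Neratinib these were 26 and 6, 6 and 2, and 8 and 0. Low depth limits calls at weak CREs, and the cause of these shifts was not tested.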
